A study of Mus musculus with 5 samples.

Results

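Pdlim4, Igfbp4, Myo6, Treml2, Plac8, Cd55, Dapl1 and Actn1 are 8 genes put forward as markers of the naive CD4+ T cell that are lost on activation. They were followed through every probe set that the platform annotation assigns to them alone, which gave 22 probe sets of 45101 on the array and 8 genes of 18193 with a probe set. The genes were chosen with results of these arrays known, so their differences between activated and naive cells are given as a description, with no test. Because of that choice large falls are no finding in themselves, and they were seen for 6 of the 8. Pdlim4, Igfbp4, Myo6, Treml2, Plac8 and Cd55 kept between 4.78% and 17.4% of their mean naive intensity in activated cells on the probe set used for each gene. Actn1 kept 60.1% and Dapl1 kept 85.4%, so Dapl1 was not a transcript that activated cells had lost.

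The arrays measured RNA of CD4+ T cells from adult BALB/c mice of 7 to 12 weeks that carry a T cell receptor transgene for the tumor and the SCID mutation, which stops development of other T and B cells. The activated group had 3 arrays, each from pooled draining axillary nodes (12 to 15 mice, as the labels give it) on day 8 after a flank injection of 100000 MOPC315 myeloma cells in 250 µl of Matrigel. Those cells were sorted as CD4+ and GB113+ to a purity of at least 95%, and GB113 is taken as the labels name it. The naive group had 2 arrays, from pooled nodes of uninjected transgenic SCID mice, and the purity of its sort is not known here. The labels describe all 5 samples as biological replicates from independent experiments. The naive mice received neither tumor cells nor Matrigel, so the effects of each cannot be told apart here.

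Values are probe set intensities on a linear, arbitrary scale whose overall level was alike on each array. T cell markers were bright on all 5 arrays, with a summed intensity between 12469 and 14264 over 6 measured markers such as Cd3e and Cd4. Activated replicate 1 stood apart in the summed transcripts of several other cell types. Its 8 monocyte or macrophage markers summed to 3413, whereas the other 2 activated arrays gave 136.9 and 837.2 and the naive arrays gave 342.8 and 193.2. Its dendritic cell and NK cell markers, summing to 2964 and 3860, were also above the range of the other arrays, which ran from 147 to 356.3 and from 857 to 1117. Gzma alone read 2489.5 within that NK cell sum. Its 5 measured neutrophil markers summed to 902.2, against 33.2 to 94.6 on the other arrays. The summed CD8 T cell markers, Cd8a and Cd8b1, had sums of 405.7, 271.2 and 293.7 in activated samples, all under the naive 851.6 and 1040, and Cd8b1 made up most of each sum. The 6 measured B cell markers summed to between 72.4 and 161.8, of which 4 lay above the intensity filter, which ran from 10.5 to 13.4 among the arrays. Because the arrays measure sorted populations as a whole, fewer cells that express a gene and less of its RNA per cell cannot be told apart.

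A naive T cell is a resting cell that circulates through lymph nodes until it meets its antigen. On activation it reorganizes its cytoskeleton and surface, divides and replaces much of its gene program. The 8 genes encode proteins of quite different kinds. Pdlim4, Actn1 and Myo6 act on the actin cytoskeleton, Igfbp4 is secreted, Treml2 and Cd55 lie at the cell surface, and Plac8 and Dapl1 are small proteins whose roles in T cells are less settled.

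The promoters of 4 of the genes are shown, 3 of genes that lost most of their signal and that of Dapl1, which kept most of it. RefSeq promoter windows of assembly GRCm38.p6 were matched by gene symbol for 7 of the 8 genes, all but Treml2, as 8 windows of 300 bases with 250 before and 50 after an annotated start. In the sequences, written 5′ to 3′ along the gene's strand, capitals mark CACCC or its reverse complement GGGTG, a motif of Kruppel-like factors, and in Dapl1 GTAAACA, a motif of FOXO factors.
Pdlim4, chr11:54068968-54069267, minus strand: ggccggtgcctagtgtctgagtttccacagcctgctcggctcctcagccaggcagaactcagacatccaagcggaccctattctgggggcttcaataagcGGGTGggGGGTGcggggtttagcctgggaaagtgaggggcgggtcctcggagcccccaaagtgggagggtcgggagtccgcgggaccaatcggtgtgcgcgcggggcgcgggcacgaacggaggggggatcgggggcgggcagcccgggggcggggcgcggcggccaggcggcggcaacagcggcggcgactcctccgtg
Plac8, upstream start, chr5:100572156-100572455, minus strand: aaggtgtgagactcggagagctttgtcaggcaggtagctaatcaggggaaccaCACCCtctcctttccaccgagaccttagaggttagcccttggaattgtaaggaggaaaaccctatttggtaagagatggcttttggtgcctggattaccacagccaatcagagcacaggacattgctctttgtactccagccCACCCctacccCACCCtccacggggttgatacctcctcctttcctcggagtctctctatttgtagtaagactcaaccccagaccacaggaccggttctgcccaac
Cd55, chr1:130462695-130462994, minus strand: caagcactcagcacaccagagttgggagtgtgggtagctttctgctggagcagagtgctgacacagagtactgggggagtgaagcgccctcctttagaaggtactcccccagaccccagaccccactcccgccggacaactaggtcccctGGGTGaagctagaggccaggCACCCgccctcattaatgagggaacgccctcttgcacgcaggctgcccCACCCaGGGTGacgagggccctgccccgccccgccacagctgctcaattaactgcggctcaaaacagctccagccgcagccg
Dapl1, chr2:59484403-59484702, plus strand: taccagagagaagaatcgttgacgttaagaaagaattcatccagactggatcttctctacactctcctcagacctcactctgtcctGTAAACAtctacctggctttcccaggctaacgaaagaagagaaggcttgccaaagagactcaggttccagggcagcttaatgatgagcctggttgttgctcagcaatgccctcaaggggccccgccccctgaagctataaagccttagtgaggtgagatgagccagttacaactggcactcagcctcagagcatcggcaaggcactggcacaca

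Cd55 held the CACCC letters 4 times, the upstream Plac8 window 3 times, Pdlim4 2 times, and Igfbp4, Myo6 and the other Plac8 window 1 time each. The windows shown for genes that lost most of their signal were those with the most matches, and no contrast with Dapl1 is read from them. In Myo6 the letters lie after the start. The windows of Dapl1 and Actn1 did not contain them. Thus 6 of the 8 windows held the motif on either strand, beside 57.5% of 32851 windows in the whole table. GTAAACA or its reverse complement TGTTTAC occurred only in the Dapl1 window among the 8, beginning 164 bases before the start, and in 3.65% of all windows. CTTTGA of TCF and LEF factors (reverse complement TCAAAG), present in 16% of all windows, and the GAAA repeat motif of interferon regulatory factors, searched on both strands and present in 3.44%, were in none of the 8. No window held more than 1 of the 4 motifs. These are matches of letters in short windows, and none was tested for binding.

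Differences between groups are given as activated minus naive in units of log2(intensity + 16). This scale shrinks differences at low intensity. They carry the standard error (SE) of a model fitted to 12873 genes above the filter. All 8 genes passed the filter, and in all 8 every activated array lay below both naive arrays on the probe set used. Such an order was found in 20.7% of the 12873 genes tested. Because the genes were chosen on this contrast, nothing is read from this count. The median difference of the 8 was -2.78, and that of all tested genes was -0.03.

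**Figure D1:**
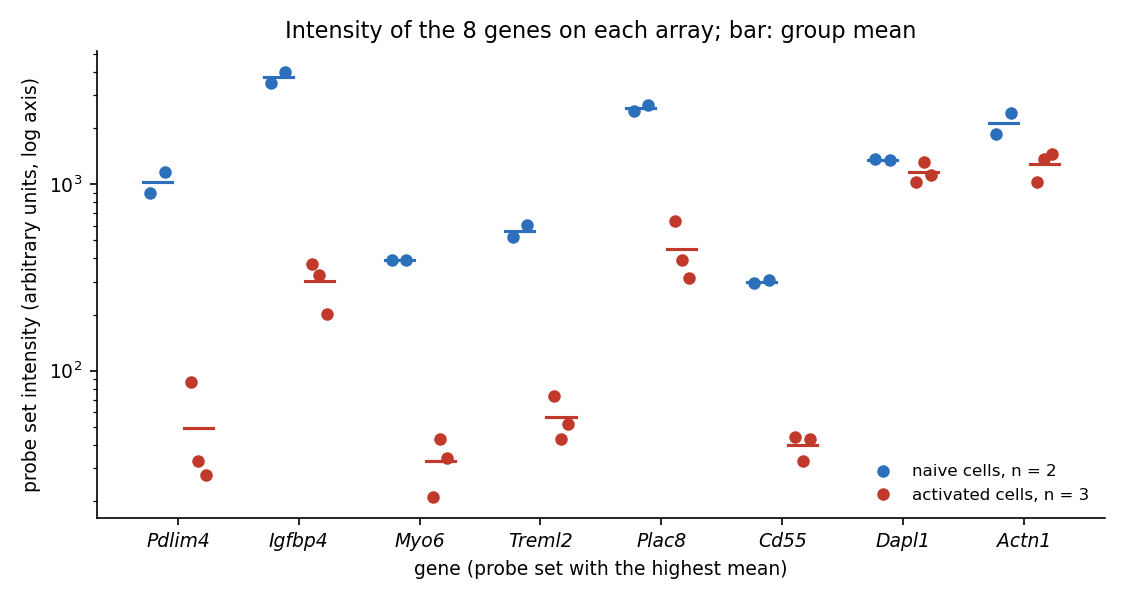
Probe set intensity (arbitrary units, log axis) of the 8 genes on each array, for the probe set with the highest mean. Blue points are the 2 naive arrays, red points the 3 activated arrays, and bars the group means; the groups lie far apart for 6 genes and close together for Dapl1 and Actn1.

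Among the cytoskeletal genes, Pdlim4 encodes a PDZ and LIM domain adaptor that binds alpha-actinin. Its single probe set read 896.6 and 1165 on the naive arrays and 87.4, 32.8 and 27.6 on the activated arrays. The groups were far apart, and activated replicate 1 was the highest of the activated arrays. The difference was -4.10 ± 0.33 (SE), and the mean naive intensity was 20.9 times the activated one. With 1 probe set for each gene, none of the 12873 genes tested had a more negative difference on this scale. The order of the top genes depends on these choices, since another probe set of Igfbp4 gave -4.14, and with a pseudocount of 64 Igfbp4 was at -3.41 and Pdlim4 at -3.30.

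Myo6 encodes myosin VI, a motor that walks toward the minus end of actin filaments and carries endocytic cargo. Its brightest probe set read 393.6 and 391.1 on the naive arrays and 21.1, 42.9 and 34.1 on the activated arrays. The naive arrays were almost equal, and here activated replicate 1 was the lowest. The difference was -3.09 ± 0.22 (SE), with 12.0 times more signal in naive cells. The other 2 probe sets were dim, with naive means of 37.9 ± 16.7 and 32.7 ± 7.21 (SD, n = 2), and were below the filter on all 3 activated arrays. Their differences of -1.47 and -1.08 were in the same direction and were bounded by that low signal. Averaged over its probe sets, the difference of Myo6 was -1.88.

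Actn1 encodes alpha-actinin-1, which crosslinks actin filaments and anchors them at adhesions. Its brightest probe set read 1865 and 2414 on the naive arrays and 1034, 1361 and 1462 on the activated arrays. The transcript stayed bright in activated cells and the groups did not overlap. The difference was -0.73 ± 0.20 (SE), a drop of 39.9% in mean intensity, and 610 tested genes fell further. The other 2 probe sets gave -0.57 and -0.40, again with every activated array below both naive arrays. The naive arrays themselves differed, and the difference was -0.92 without naive replicate 1 and -0.55 without naive replicate 2.

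Igfbp4 encodes a secreted protein that binds insulin-like growth factors and keeps them from their receptor. Its brightest probe set read 3501 and 4008 on the naive arrays and 374.8, 325.7 and 202.6 on the activated arrays. The difference was -3.61 ± 0.23 (SE), and naive cells had 12.5 times the activated signal. Igfbp4 had 6 probe sets, all with a suffix that marks sequence shared among transcripts, and on all 6 the activated arrays lay below both naive arrays. Their differences ran from -4.14 to -2.75. One of them read 1128 and 3293 on the naive arrays, a gap that the other 5 probe sets did not show in that size. The dimmest, with a naive mean of 181.9 ± 50.8 (SD, n = 2), was above the filter on 1 activated array.

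**Figure D2:**
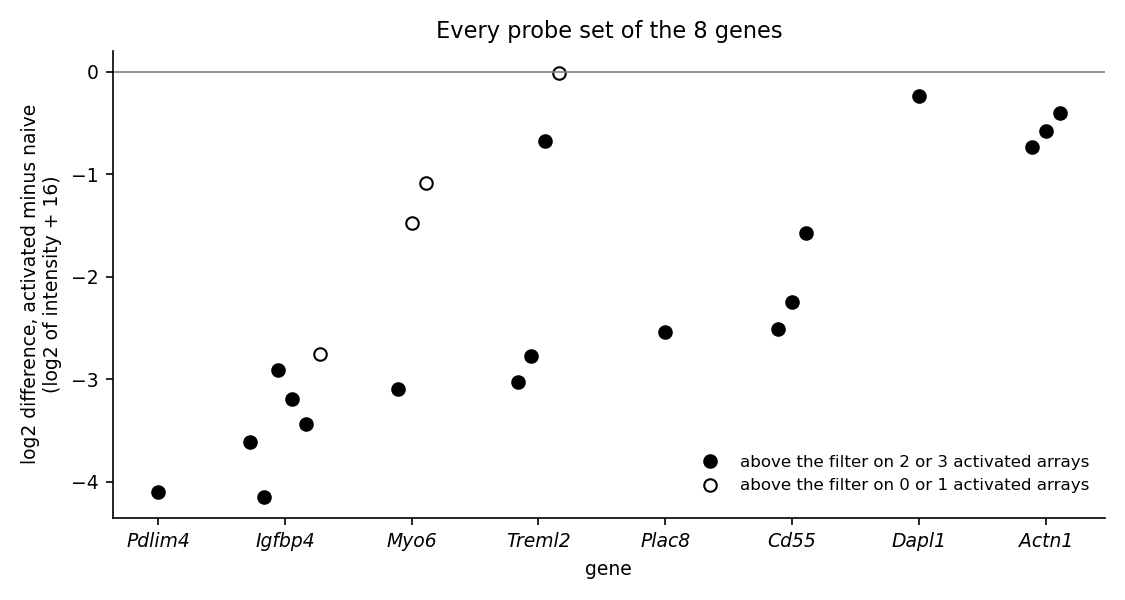
Difference between groups (log2 of intensity + 16, activated minus naive) for each of the 22 probe sets, by gene. Filled points were above the intensity filter on 2 or 3 activated arrays and open points on 0 or 1; all points of Igfbp4 lie below -2.7, while Treml2 and Myo6 have probe sets nearer 0.

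Of the surface proteins, Treml2 is a receptor of the TREM family found on several kinds of blood cell. Its brightest probe set read 523.2 and 604.5 on the naive arrays and 73.4, 42.9 and 52.0 on the activated arrays. The difference was -3.03 ± 0.21 (SE), and the ratio of mean intensities was 10.1. A second bright probe set gave -2.77. Another, with a naive mean of 45.7 ± 15.0 (SD, n = 2), gave -0.67, and the last was below the filter on all 5 arrays, where its groups overlapped. The size of the Treml2 difference therefore rests on 2 of its 4 probe sets, and it was -1.62 when all 4 were averaged.

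Cd55, or decay-accelerating factor, is a membrane protein that breaks up complement convertases on the cell's own surface. It read 295.1 and 304.8 on the naive arrays and 43.9, 32.6 and 43.1 on the activated arrays. Both groups were tight, and the difference was -2.51 ± 0.19 (SE), with 7.52 times more signal in naive cells. The other 2 probe sets gave -2.25 and -1.57, with groups that did not overlap. A further probe set that the annotation assigns to Cd55 and its neighbour in sequence Cd55b was below the filter on all 5 arrays and is not counted among the 22.

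Plac8 encodes a small cysteine-rich protein that is also made in myeloid and other immune cells. Its single probe set read 2483 and 2661 on the naive arrays and 636.7, 392.5 and 314.2 on the activated arrays. Among the 6 genes with large differences it kept the largest share of its naive intensity, 17.4%, and the difference was -2.54 ± 0.25 (SE). Activated replicate 1, with the highest sum of monocyte or macrophage markers, had the most Plac8 of the activated arrays, far below both naive arrays. Activated replicate 3 had a higher sum of those markers than activated replicate 2, 837.2 against 136.9, but less Plac8. The part of myeloid cells in the Plac8 signal was not tested. Without activated replicate 1 the difference was -2.82.

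Dapl1, a relative of death-associated protein, is often listed with genes of resting T cells. Its single probe set read 1363 and 1351 on the naive arrays and 1035, 1313 and 1127 on the activated arrays. The naive arrays were nearly equal, and the highest activated array lay just under them. The difference was -0.23 ± 0.16 (SE), a drop of 14.6% in mean intensity, and 3780 of the tested genes fell further. With each array left out in turn it ran from -0.32 to -0.16.

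The 8 genes did not vary together within the groups. On activated replicate 1, the signal was highest of the 3 activated arrays for Pdlim4, Igfbp4, Treml2, Plac8 and Cd55, by 0.78, 0.34, 0.33, 0.55 and 0.11 above the group mean in log2 units. It was lowest there for Myo6, Dapl1 and Actn1, at -0.37, -0.15 and -0.29. On that array the summed monocyte, dendritic and NK cell markers were at their highest, as given above. Not every marker was: Cd14 and Adgre1 peaked on activated replicate 3, Zbtb46 on activated replicate 2 and Klrd1 on naive replicate 2. Without activated replicate 1 the difference grew to -4.49 for Pdlim4, -3.78 for Igfbp4, -3.19 for Treml2 and -2.82 for Plac8. It was -2.56 for Cd55 and shrank to -2.91 for Myo6, -0.58 for Actn1 and -0.16 for Dapl1. The 6 large differences were bound to remain without that array, since the other activated arrays also lay far below both naive arrays. Whether transcripts of other cells play a part in them was not tested. Of the CD8 T cell markers, Cd8b1 was higher on both naive arrays, at 797.6 and 995.7, than on the activated arrays, at 326.5, 246.8 and 275.0. Cd8a was dim and overlapped between groups, at 54.0 and 44.6 on the naive arrays and 79.2, 24.4 and 18.7 on the activated arrays. The part of CD8 T cells in the differences of the 8 genes was not tested.

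**Figure D3:**
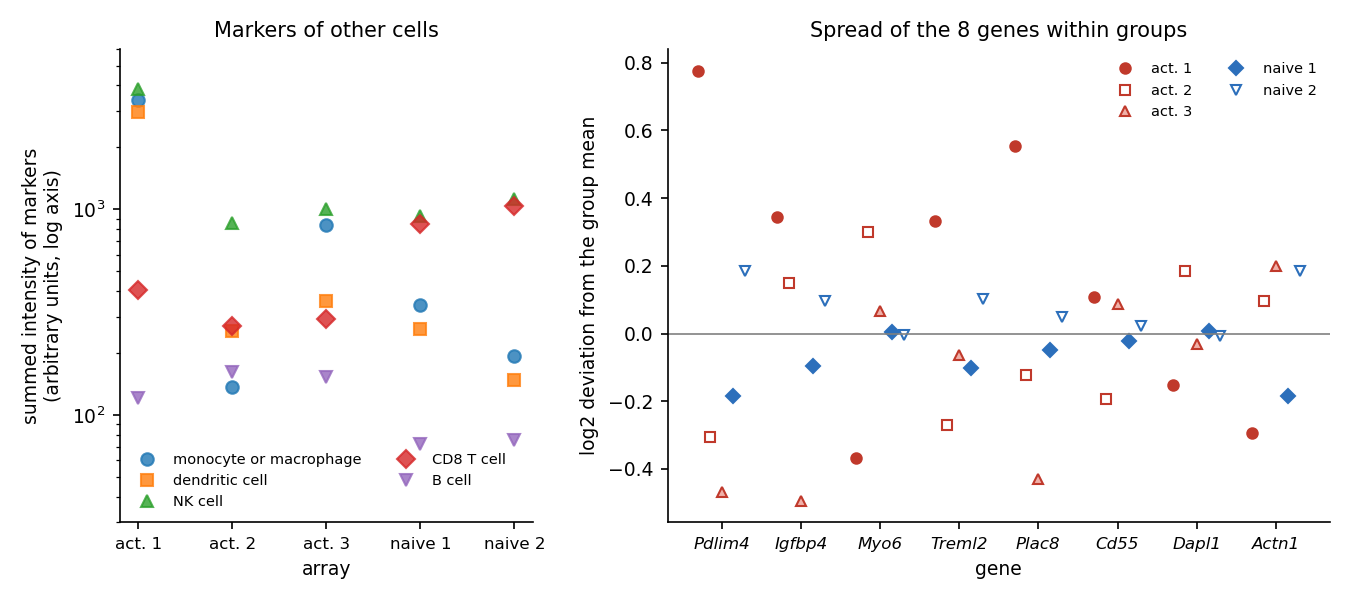
Left, summed intensity of marker genes of other cells on each array (arbitrary units, log axis), by cell type. Right, log2 deviation of each of the 8 genes on each array from the mean of its group; activated replicate 1 (filled red circles) is the highest activated array for 5 genes and the lowest for 3.

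The arrays also differed in the bioC hybridisation control, with mean intensities of 713.9, 633.7 and 715.6 on activated replicates 1 and 2 and naive replicate 1, and of 168.9 and 206.9 on activated replicate 3 and naive replicate 2. Whether this marks a batch is not given in the sources used here. Within each side of that split all 8 genes were lower in activated cells, as the order of the arrays given above had fixed. The dimmer side sets activated replicate 3 against naive replicate 2 alone, and the part of a batch was not tested. The differences were -3.68 on the brighter side and -4.76 on the dimmer side for Pdlim4, -3.27 and -4.20 for Igfbp4, and -2.27 and -3.02 for Plac8. For Myo6, Treml2 and Cd55 they were -3.13 and -3.02, -2.89 and -3.19, and -2.53 and -2.44. For Actn1 and Dapl1 they were -0.65 and -0.72, and -0.22 and -0.26.

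The next question was whether gene families related to the 8 moved with them. Genes were called by limma, with p-values adjusted by Benjamini-Hochberg over all tested genes and a threshold of 0.05. Of 44 relatives listed, 34 were tested, 1 was called lower and 3 higher, beside the 4.14% and 6.36% of all tested genes called lower and higher. Their median log2 fold change was 0.13, and 9 relatives lay below the filter. The list was drawn up with results of these arrays known, and it is not independent evidence of a direction.

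Among 5 tested PDZ and LIM relatives of Pdlim4, Pdlim1 fell. It read 778.0 and 720.1 on the naive arrays and 387.0, 494.8 and 324.7 on the activated arrays, a log2 fold change of -0.89 ± 0.19 (SE, limma adjusted p = 0.014). This call was lost without naive replicate 1 or 2, at -0.84 and -0.95, and with all its probe sets averaged, at -0.26. Dap, the relative of Dapl1, rose by 0.83 ± 0.18 (SE, limma adjusted p = 0.015). It read 568.7 and 584.8 on the naive arrays and 839.4, 1124 and 1184 on the activated arrays. Dap passed no longer when activated replicate 2 (0.77) or either naive replicate (0.81 and 0.85) was left out. Of 13 tested myosin heavy chains, 2 were called higher and 0 lower, beside the same 6.36% and 4.14%, and both calls were lost in several alternatives. Myo1e, a membrane-linked myosin, read 3.7 and 8.1 on the naive arrays, below the filter, and 41.9, 37.4 and 21.1 on the activated arrays. Its log2 fold change was 1.16 (limma adjusted p = 0.025), and that of Myo5a, the cargo motor myosin Va, was 0.82 (limma adjusted p = 0.039). The calls were lost in 6 and 10 of 17 alternatives, among them with all probe sets averaged, at 0.36 and 0.39. Myo1e also failed the test when activated replicate 1 (1.03), activated replicate 2 (1.09), naive replicate 1 (1.01) or naive replicate 2 (1.30) was omitted. Myo5a failed it when activated replicate 2 (0.80), activated replicate 3 (0.70), naive replicate 1 (0.72) or naive replicate 2 (0.91) was omitted. The nonmuscle myosin Myh9 had a log2 fold change of -0.06 (limma adjusted p = 0.91), whose sign turned without activated replicate 3 and without naive replicate 1.

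Of the relatives that were not called, Actn4, the other alpha-actinin widely made outside muscle, read 489.9 and 424.5 on the naive arrays and 405.3, 515.1 and 527.4 on the activated arrays, which overlapped (log2 fold change 0.07, limma adjusted p = 0.86, and -0.03 without naive replicate 2). Cr1l, the rodent complement regulator Crry, had a log2 fold change of -0.10 ± 0.15 (SE, limma adjusted p = 0.76) beside the -2.51 of Cd55. With averaged probe sets Cr1l was at -0.35 (limma adjusted p = 0.16) and Cd55 at -2.11. Igfbp7 was dim, at 44.5 ± 11.4 (SD, n = 2) in naive and 18.8 ± 10.7 (SD, n = 3) in activated cells. It did not pass the test (log2 fold change -0.82, limma adjusted p = 0.11) but passed without activated replicate 3, at -1.06. The TREM family gene Trem3 and the PLAC8-domain gene Cnfn were near the filter, at log2 fold changes of 0.42 and -0.01 (limma adjusted p = 0.38 and 0.98), and the sign of Cnfn turned without activated replicate 2 or naive replicate 1.

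**Figure D4:**
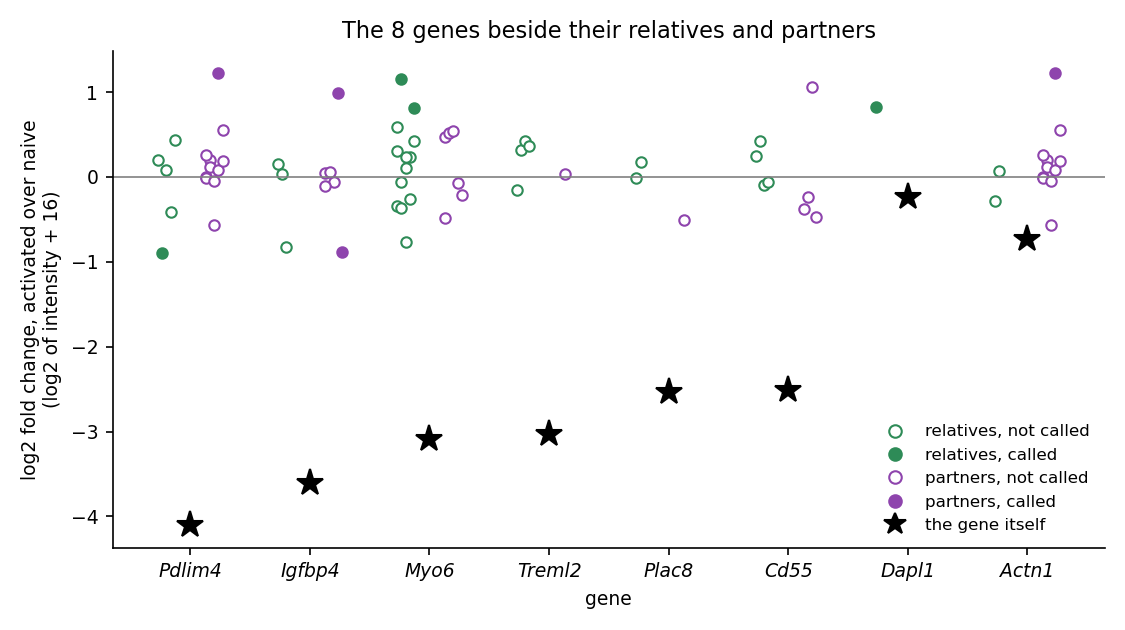
Log2 fold change (log2 of intensity + 16, activated over naive) of the 8 genes (stars), of their tested family relatives (green) and of their tested partners (purple), filled where the adjusted p was under 0.05. Partners of Pdlim4 and Actn1 are 1 shared list and appear under both; the stars of 6 genes lie below every relative and partner drawn.

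Of 37 listed binding partners, ligands and pathway genes, 29 were tested, 1 was called lower and 2 higher, again beside 4.14% and 6.36% of all tested genes, with a median log2 fold change of 0.03. In the insulin-like growth factor axis, the receptor Igf2r, which clears insulin-like growth factor 2, rose by 0.99 ± 0.17 (SE, limma adjusted p = 0.0039). It read 148.3 and 174.9 on the naive arrays and 346.1, 303.0 and 360.6 on the activated arrays, and the call held in each of 17 alternatives. The insulin receptor Insr fell by 0.89 ± 0.25 (SE, limma adjusted p = 0.045). It read 133.5 and 186.4 on the naive arrays and 62.4, 67.2 and 110.9 on the activated arrays. The call was lost in 10 of 17 alternatives, among them without activated replicate 1 or 2 and without naive replicate 1 or 2, at -0.76, -0.80, -1.11 and -0.67. Igf1r, the signalling receptor, which was named after its values were seen, had a log2 fold change of 0.06 ± 0.27 (SE, limma adjusted p = 0.94).

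Among 11 tested genes of actin crosslinks and adhesions, the integrin chain Itgb1 rose by 1.22 ± 0.30 (SE, limma adjusted p = 0.027). It read 131.8 and 71.3 on the naive arrays and 305.6, 309.4 and 161.5 on the activated arrays. The other 10 did not pass the test. Itgb1 no longer passed when its probe sets were averaged (0.64), nor when activated replicate 1 (1.08), activated replicate 2 (1.07) or naive replicate 2 (0.84) was omitted. The call was also lost with no filter and without the variance trend, so in 6 of 17 alternatives. Beta-actin, Actb, had a log2 fold change of 0.00 ± 0.23 (SE) whose sign turned in 6 of 17 alternatives. None of 6 tested cargo adaptors of Myo6 passed the test, among which Tax1bp1, an autophagy receptor, had a log2 fold change of -0.07 (limma adjusted p = 0.85; 0.09 without naive replicate 1). The adhesion receptor Adgre5, or CD97, which binds Cd55, read 1176 and 1059 on the naive arrays and 851.2, 841.8 and 883.7 on the activated arrays. These groups did not overlap, but the log2 fold change of -0.37 ± 0.15 (SE, limma adjusted p = 0.16) did not pass the test. The transcription factor Cebpb, reported with Plac8, and Cd276, a reported ligand of Treml2, did not pass either, at -0.51 and 0.03 (limma adjusted p = 0.34 and 0.96), and Cd276 was near the filter with a sign that turned in 4 of 16 alternatives.

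The 8 were then set beside 44 other genes associated with the naive or resting T cell, of which 5 were not analysed here and 39 were tested. In activated cells 14 fell and 6 rose, with a median log2 fold change of -0.17, beside 4.14% and 6.36% of all tested genes. The list was drawn up with earlier results in view, and it is not independent evidence of a direction. Without naive replicate 2 the counts were 7 and 3, and the number that rose was 3 without activated replicate 2 and 2 without naive replicate 1. The cytokine signal suppressor Socs3 fell by 2.41 ± 0.23 (SE, limma adjusted p = 9.2e-05), and the transcription factor Klf2, which drives genes of T cell circulation, fell by 1.69 ± 0.19 (SE, limma adjusted p = 3.5e-04). Klf2 read 1833 and 1608 on the naive arrays and 475.3, 670.3 and 447.7 on the activated arrays. The chemokine receptor Ccr9 fell by 2.72 ± 0.52 (SE, limma adjusted p = 0.0071), a call that was lost without naive replicate 2, at -2.51, with robust variances, and on probe sets without a shared-sequence suffix, at -0.77. The interleukin 7 receptor Il7r, the integrin chain Itgae and the egress receptor S1pr1 had log2 fold changes of -1.98, -1.87 and -1.18 (limma adjusted p = 2.8e-04, 6.8e-04 and 0.0011). Itgae was dim, at 91.3 and 88.5 on the naive arrays and 18.0, 7.6 and 14.4, near the filter, on the activated arrays. The size of its fall depended on the settings, at -2.74 with a pseudocount of 1 and -0.995 with 64. On probe sets without a shared-sequence suffix Itgae was at -1.33.

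Some resting-cell genes kept most of their signal, as Dapl1 did, or rose. The node homing receptor Ccr7 and the transcription factor Lef1 were not called, at log2 fold changes of -0.09 and -0.20 (limma adjusted p = 0.78 and 0.55). For Ccr7 every activated array still lay below both naive arrays, and the value of Lef1 was 0.10 with averaged probe sets. Rgs10, a regulator of G protein signalling, read 441.5 and 436.4 on the naive arrays and 1211, 1612 and 1262 on the activated arrays. It rose by 1.59 ± 0.17 (SE, limma adjusted p = 2.3e-04). Nsg2, a vesicle protein first known from neurons, rose by 1.09 (limma adjusted p = 0.0021), and the cannabinoid receptor Cnr2 rose by 0.88 (limma adjusted p = 0.031). Cnr2 failed the test when activated replicate 2 (0.87), activated replicate 3 (0.73), naive replicate 1 (0.83) or naive replicate 2 (0.94) was omitted. The call was also lost with no filter, without the variance trend and with the replicate block, so in 7 of 17 alternatives.

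**Figure D5:**
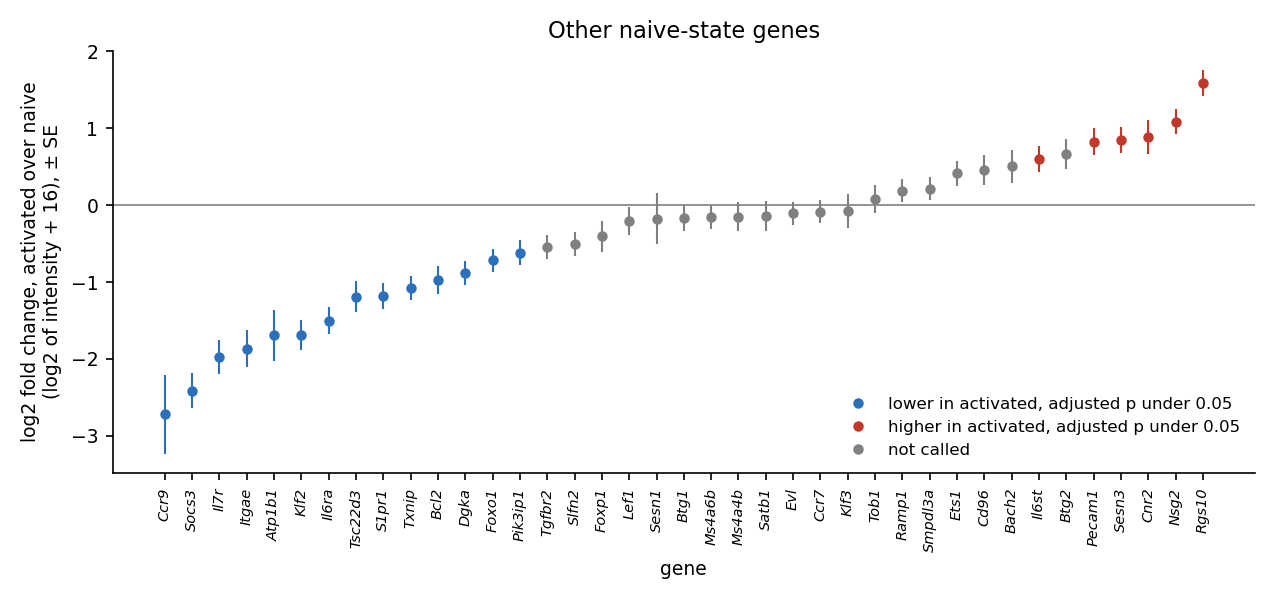
Log2 fold change (log2 of intensity + 16, activated over naive) with its SE for 39 other naive-state genes, ordered by value. Blue marks the 14 that fell, red the 6 that rose and grey the 19 that were not called.

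Genes whose pattern over the 5 arrays was most like the mean pattern of the 8 were ranked by the root mean square difference of the profiles, each centred on its own mean. The nearest were Gm4951, at 0.15 log2 units, the interferon-induced gene Ifit3, at 0.18, and the kinase Pim1, at 0.19. Oas2, an interferon-induced 2'-5' oligoadenylate synthetase, the ligand Wnt5b and the phosphoinositide 3-kinase subunit Pik3r5 followed, at 0.20, 0.21 and 0.21. The probe set of Wnt5b had a shared-sequence suffix and was dim on the activated arrays, at 33.5, 17.6 and 17.9. Of the 8, Cd55 and Plac8 lay nearest their mean pattern, at 0.14 and 0.22, and Dapl1 lay farthest, at 1.12. Pim1, for example, read 626.6 and 775.0 on the naive arrays and 132.3, 156.4 and 125.7 on the activated arrays. With 5 arrays in 2 groups this likeness reflects mostly the size of the group difference.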

How the data were processed

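Expression was measured on 5 Affymetrix mouse arrays, 3 of activated and 2 of naive cells, from 6 µg of total RNA labelled as biotinylated cRNA, per the labels. The deposited values are 1 intensity per probe set and array. How they were summarised, and with what software, is not given in the sources used here. A 2% trimmed mean was close to 100 on every array, as a global scaling would leave it, so a change means a change against the average probe set.

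The members and lists were chosen with earlier results of these data known. Members were taken by platform symbol. For gene-level values the probe set with the highest mean log2 value among those with 1 symbol was used, after symbols were updated by Entrez ID. Intensities were transformed as log2(intensity + 16). Genes entered the test if they exceeded an array's 40th percentile in 2 or more arrays, which left 12873 of 18193 genes. The fit used limma 3.58.1 in R 4.3.3 (lmFit, then eBayes with a trend on intensity), with Benjamini-Hochberg adjustment over all tested genes and a threshold of 0.05. The code was tested on simulated data. No set test was run. The number of arrays limits the precision. Named genes were all members, the 4 largest falls and 3 largest rises of the naive-state list with a fixed set of its genes, each called relative or partner, and the brightest of each family. Alternatives were pseudocounts of 1 and 64, quantile normalization, median centring, no filter or the 60th percentile, averaged probe sets, probe sets without a suffix, other variance models, blocks for the replicate number or the bioC split, and omission of each array. No pair of arrays shared over 0.947% of its values.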

Additional observations from a re-analysis of the deposited data

How the results depend on the processing

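For all 8 genes every activated array lay below both naive arrays, which fixed a lower activated mean for other pseudocounts and omitted arrays. In each of 12 or 13 alternatives in which it was computed, each of the 8 genes had a lower mean in activated cells. Their median difference, -2.78 on all arrays, was -3.12 with a pseudocount of 1, -2.32 with 64 and -1.996 with averaged probe sets, and from -2.86 to -2.68 with each array left out in turn. No median could be given for probe sets without a suffix, since Igfbp4 has none. Over all tested genes 533 were called lower and 819 higher. The number lower was 349 with no filter and 859 with the bioC split as a block; leaving out arrays gave 188 to 521 lower and 461 to 721 higher, the fewest without naive replicate 2. In the naive-state list, leaving out arrays gave 7 to 14 lower and 2 to 5 higher.

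Of the relatives, 1 was called higher with no filter, 0 lower with averaged probe sets and 2 lower with the replicate block. Leaving out arrays gave 0 to 2 higher and 0 to 2 lower. Of the partners, 1 was called higher with no filter, with averaged probe sets and without the variance trend, and 4 with the replicate block. With a pseudocount of 1, quantile normalization, median centring, no filter, averaged probe sets or no trend, 0 partners were lower, against 2 with the bioC block; leaving out arrays gave 1 to 3 higher and 0 to 1 lower. The cause of these changes was not tested.

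Signs turned only for named genes that did not pass the test in any such setting. Actb was at -0.30 with averaged probe sets, -0.60 without suffixed probe sets, -0.087 with the bioC block, and from -0.28 to 0.28 over omitted arrays. Cd276 was at -0.029 with a pseudocount of 1, -0.012 with the bioC block and from -0.18 to 0.25 over omitted arrays. Over omitted arrays Cnfn ran from -0.12 to 0.13, Actn4 from -0.030 to 0.19 and Tax1bp1 from -0.23 to 0.089. Lef1 was at 0.10 with averaged probe sets. Myh9 was at 0.13 with the replicate block and from -0.28 to 0.16 over omitted arrays.

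The labels share replicate numbers but call the experiments independent. Deviations from the group means correlated at 0.17 for replicates 1 and -0.13 for replicates 2, and the numbers were not taken as pairs. The deviations of the 2 naive arrays mirror each other, so each value takes the opposite sign with the other naive array. The strongest value, 0.31, was between activated replicate 3 and naive replicate 2, the arrays on the dimmer side of the bioC split. The block for the replicate number also ended the calls of Myo5a and Cnr2, at 0.70 and 0.73, and gave one for Igfbp7, at -1.06. Low signal limits the size of any fall to intensities below the filter.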
